A study of Mus musculus with 49 samples.

Results

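CA3 pyramidal cell layer was set against dentate gyrus (DG) granule cell layer in rTg4510 mice, a model of tau pathology, with both layers cut by laser capture from the same 6 animals. The 12 arrays compared (6 CA3, 6 DG) were those whose titles gave this genotype and these subfields, out of 49 arrays in the series, and each CA3 array was paired with the DG array of the same mouse by the mouse number. rTg4510 mice carry the tetracycline-controlled transactivator tTA under the Camk2a promoter, from a line on a 129S6 background, together with a responder line on FVB/N that places human tau with the P301L mutation under tTA control. tTA mice (5 pairs of arrays) carry the transactivator without the tau responder, and DN mice (double negative, 5 pairs) carry neither. All were female and 6.1 months old, and the paper describes the controls as littermates. The 3 genotypes thus came from the same mixed 129S6 and FVB/N cross, but the labels do not give the litter of each mouse. The Camk2a promoter drives tTA in excitatory forebrain neurons, so both captured layers could express the transgene. Each captured layer also held glia, interneurons and vessels, and in such bulk samples fewer cells of a type and less RNA per cell cannot be told apart.

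Dentate granule cells are small, densely packed neurons whose axons, the mossy fibres, end in large boutons on the proximal dendrites of CA3 pyramidal neurons. CA3 pyramidal neurons in turn excite each other and project to CA1 through the Schaffer collaterals. The granule cell layer borders one of the few zones where neurons are still born in the adult brain, and granule cells hold much calbindin, a cytosolic calcium buffer, which CA3 pyramidal neurons largely lack.

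In rTg4510 mice 3380 of 22626 probe sets (14.9%) were called at a Benjamini-Hochberg adjusted p below 0.05 by limma, paired within mouse. Of these, 1799 (7.95%) were higher in CA3 and 1581 (6.99%) were lower. At an unadjusted p below 0.05 there were 6374 (28.2%). Differences are given throughout as CA3 minus DG on the log2 scale, so that 1 is a 2-fold difference and a positive value is higher in CA3. A difference of at least 2-fold was reached by 281 probe sets higher in CA3 (1.24%) and 368 lower (1.63%), and one of at least 4-fold by 33 higher and 81 lower. The median absolute difference over all probe sets was 0.145. In 1586 probe sets (7.01%) the 6 CA3 arrays and the 6 DG arrays did not overlap, and 3060 called probe sets had the same sign in all 6 mice. With 1 probe set per gene, the brightest of that gene over the 12 arrays, 1871 of 11807 genes (15.8%) were called, 996 higher (8.44%) and 875 lower (7.41%).

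**Figure D1:**
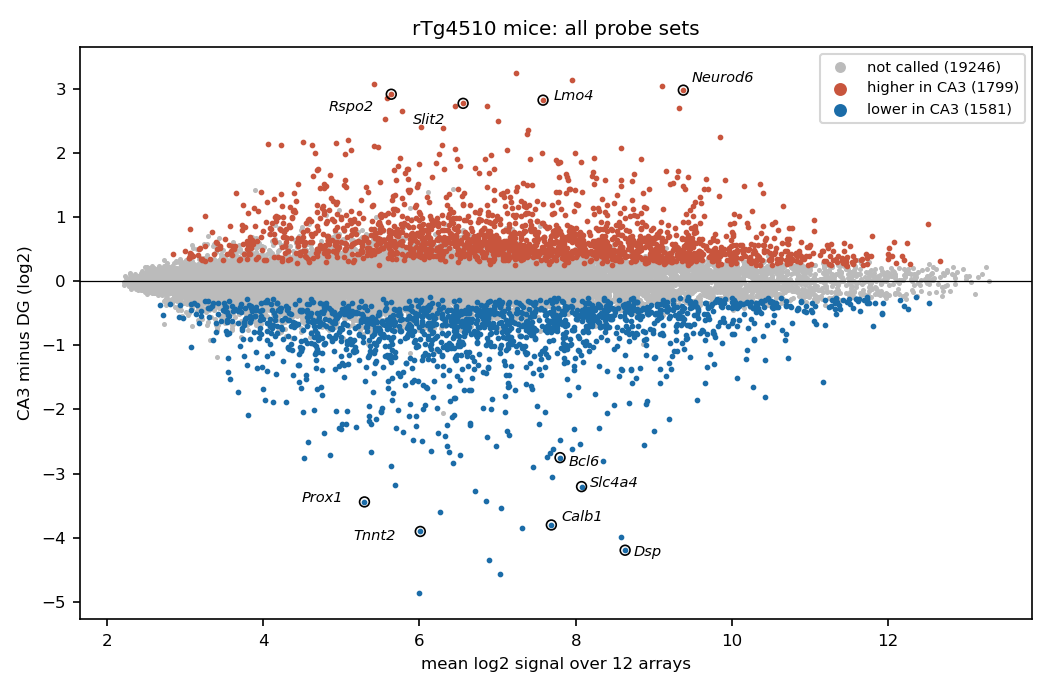
CA3 minus DG (log2, y axis) against the mean log2 signal over the 12 arrays (x axis) for 22626 probe sets in rTg4510 mice, with called probe sets coloured. The 1799 higher and 1581 lower calls run from dim to bright probe sets, and the lower calls reach farther from 0. Open circles mark the named genes.

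Leaving out 1 mouse at a time left between 2328 (without mouse4653) and 3274 (without mouse4621) probe sets called. None of the 3380 changed sign, and 1926 were called in every such fit. With 1 probe set per gene, 556 genes higher in CA3 (4.71%) and 532 lower (4.51%) were called whichever mouse was left out. The medians of the 12 arrays lay between 4.97 and 5.06 and were slightly lower in CA3 than in DG of all 6 mice. The ratio of 3' to 5' signal for Actb, a measure of RNA integrity on the log2 scale, averaged -0.63 in CA3 and -0.52 in DG (exact paired permutation test, two-sided p = 0.25, smallest possible 0.03125). Adding the Actb ratio to the fit left 2120 calls, and its part in the differences was not tested further.

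The labelled layers carried their defining markers. Of 7 measured CA3 pyramidal markers 6 were higher in CA3, with a list median of 2.10, and all 10 measured dentate granule markers were lower, with a list median of -2.44. The mean level of the granule list lay between 4.87 and 6.03 in CA3 arrays (median 5.05) and between 7.52 and 7.91 in DG arrays (median 7.65). The CA3 array of mouse4549 gave the highest of the CA3 values, 6.03, with the next at 5.23. Without that mouse the granule list median was -2.60 and all 10 markers were still called. Markers of other hippocampal neurons differed as well. Of 4 CA2 markers 3 were lower in CA3, as were 3 in tTA mice and 4 in DN mice. Which cells gave this CA2 marker signal was not tested. Among 5 hilar mossy cell markers Nmb and Calb2 were lower (Calb2 not without mouse4535, mouse4549, mouse4653 or mouse4666), and of 4 CA1 markers 1 was higher.

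Among the CA3 markers the Wnt agonist Rspo2 had 6.40, 7.25 and 7.53 (lowest, median and highest log2 signal) in CA3, against 3.48, 4.34 and 4.64 in DG, a difference of 2.91 ± 0.13 (SE, n = 6 mice, adjusted p = 3.29e-05). Socs2, an inhibitor of growth hormone and cytokine signalling, had 6.35, 6.67 and 7.68 in CA3, against 3.97, 4.28 and 4.65 in DG (2.53 ± 0.21, adjusted p = 0.000249). The lowest CA3 array of both genes stood well above the highest DG array. Nectin3, an adhesion molecule that takes part in junctions between mossy fibre terminals and CA3 dendrites, differed by 2.69 ± 0.14 at its brightest probe set. Of its 4 other probe sets, 2 differed by 3.13 and 3.05 and were called, and 2 at 0.13 and -0.17 were not. Iyd (2.10), Dkk3 (1.48) and Bok (1.44) completed the called members, while Coch, at -0.31, was below the median signal of all probe sets in both layers and was not called.

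Among the granule markers the desmosomal protein Dsp showed the largest difference of any named gene. It had 5.53, 6.52 and 7.71 in CA3, against 10.49, 10.72 and 11.03 in DG, or -4.19 ± 0.33 (adjusted p = 0.000187), which is 18.3-fold. Calb1, calbindin, had 4.91, 5.66 and 7.78 in CA3, against 9.26, 9.64 and 9.86 in DG (-3.80 ± 0.35, 13.9-fold, adjusted p = 0.000363), and its highest CA3 value was that of mouse4549. Prox1, the homeobox factor that specifies and maintains granule cell identity, had 2.76, 3.16 and 5.27 in CA3, against 6.17, 7.13 and 7.47 in DG (-3.44 ± 0.47, adjusted p = 0.00239). None of the 3 genes overlapped between the layers. Rfx3 (-2.71), the complement-related synaptic organizer C1ql3 (-2.61), the cation channel Trpc6 (-2.27), Stxbp6 (-2.10), Tdo2 (-1.41), Pdzrn3 (-1.14) and Il16 (-0.94) were lower as well.

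**Figure D2:**
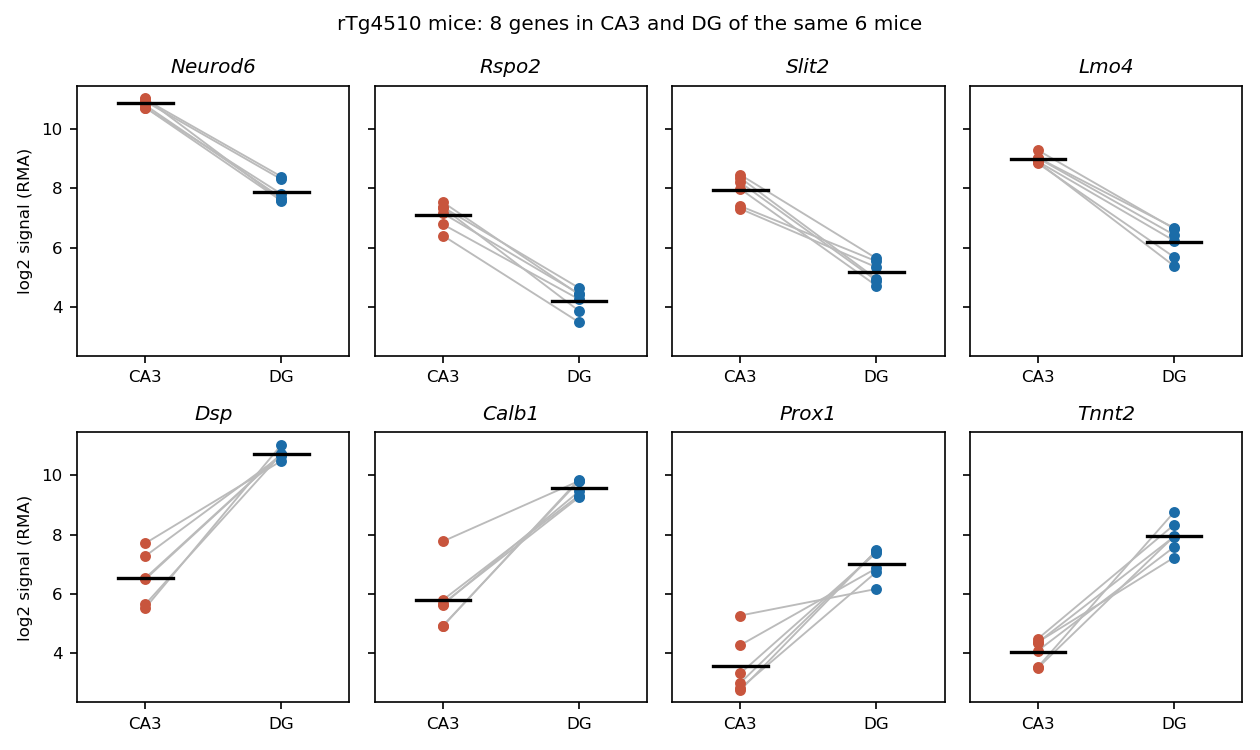
Log2 signal (y axis) in CA3 (left) and DG (right) of the same 6 rTg4510 mice, with a grey line for each mouse and a black bar for the mean. The upper 4 genes were higher in CA3 in all 6 mice and the lower 4 were lower in all 6, and no gene overlaps between the layers.

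The 12 genes that were highest in CA3 relative to DG, among those with the same sign in all 6 mice, held both transcription factors and secreted proteins. Neurod6, a basic helix-loop-helix factor of pyramidal neurons, came first with 10.72, 10.87 and 11.03 in CA3, against 7.57, 7.74 and 8.39 in DG (2.98 ± 0.12, 7.87-fold, adjusted p = 2.69e-05). Rspo2 and the LIM-domain protein Lmo4 (2.82 ± 0.15) followed. The axon repellent Slit2 (2.77 ± 0.23), the adaptor Stac2 (2.73), the protease Klk8 (2.65), which acts on extracellular matrix at synapses, and Ptgs2 (2.49), the inducible cyclooxygenase, came next to Nectin3 and Socs2. Prkcd (2.38), the delta isoform of protein kinase C, Trps1 (2.36), a GATA-type repressor, and Khdrbs3 (2.29), a splicing regulator, completed the 12. Of these only Prkcd overlapped between layers, with 6.88, 7.36 and 8.42 in CA3, against 3.92, 4.85 and 7.42 in DG, and it was higher in CA3 in each mouse.

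The 250 bases before the annotated start of Neurod6 are shown because this gene had the highest difference. They were taken from RefSeq (GRCm38.p6), on the minus strand at chr6:55681264-55681513, written 5′ to 3′, with matches to the E-box CANNTG in capitals.
Neurod6: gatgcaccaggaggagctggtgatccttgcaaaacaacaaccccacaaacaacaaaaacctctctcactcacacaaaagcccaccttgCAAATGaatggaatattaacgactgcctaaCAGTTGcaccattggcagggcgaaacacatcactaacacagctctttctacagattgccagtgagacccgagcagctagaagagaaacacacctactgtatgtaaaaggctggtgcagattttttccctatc
Both strands were searched for CANNTG, for the cyclic AMP response element TGACGTCA, for the AP-1 element TGACTCA and for the variant TGACATCA. The E-box, which basic helix-loop-helix factors bind, occurred in 2 places here and in 66.2% of 32851 mouse promoter windows of the same length, so a match is common.

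The 12 genes lowest in CA3 held, after Dsp, the troponin Tnnt2 with 3.51, 4.23 and 4.49 in CA3, against 7.23, 7.94 and 8.76 in DG (-3.90 ± 0.27, adjusted p = 0.000111). Calb1, Crym (-3.54), a thyroid hormone binding protein, Prox1 and the serine protease Prss23 (-3.43) followed. Slc4a4, a sodium bicarbonate cotransporter also used as an astrocyte marker, had 5.87, 6.33 and 7.18 in CA3, against 9.61, 9.63 and 9.82 in DG (-3.20 ± 0.16), and 1 of its 3 other probe sets, at 0.00, was not called. Inhba (-3.05), the activin A subunit, the potassium channel Kcnc4 (-2.90), the calpain Capn3 (-2.89), Plekha2 (-2.83) and the glypican Gpc4 (-2.80) completed the 12. Kcnc4 was the most even of them over mice, with a standard error of 0.08 and an adjusted p of 8.97e-06, although another of its probe sets, at -0.06, was not called. Tnnt2, Prox1, Capn3 and Plekha2 were below the median signal of all probe sets in CA3, and among the 12 genes highest in CA3 Rspo2, Klk8 and Socs2 were below it in DG, so the size of these differences depends on signals near background on 1 side.

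Transcription factors of forebrain neurons were lower in CA3 more often than higher. Of 33 measured, 15 were lower and 2 higher, with a median of -0.39, against 7.41% lower and 8.44% higher over all genes. Of those, 12 lower and both higher calls held whichever mouse was left out. This list, like the others, was chosen with earlier results of these data known. Shares of list members called, set beside those of all genes, therefore only describe the lists. Bcl6, a zinc finger repressor, had 5.83, 6.41 and 7.21 in CA3, against 8.99, 9.18 and 9.36 in DG (-2.75 ± 0.15, adjusted p = 4.83e-05). Mef2c (-1.86), an activity-regulated factor of excitatory neurons, Bcl11b (-1.34), Tbr1 (-1.29), Nfia (-1.19), Nfib (-0.89), Rorb (-0.80), Id4 (-0.64) and Neurod1 (-0.63) were lower too. The 2 factors higher in CA3 were Neurod6 and Satb1 (0.87), a chromatin organizer. In a list of adult neurogenesis genes 7 of 15 were lower and none higher, with a median of -0.51. Among these Sox11 (-1.05), Sox4 (-0.78), Sox2 (-0.54) and Stmn1 (-0.46) held without any 1 mouse. With the dimmest probe set of each gene in place of the brightest the medians of these lists were -0.16 and -0.17.

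Axon guidance genes moved in both directions. Of 44 measured, 11 were higher in CA3 and 6 lower (38.6% called, beside 15.8% of all genes), with a median of 0.08. Slit2 had 7.30, 8.08 and 8.45 in CA3, against 4.71, 5.14 and 5.63 in DG, and its receptor Robo1 was higher as well (0.93). The semaphorins split: Sema3e (1.99) and Sema5b (1.74) were higher, while Sema3a (-1.31) and Sema3c (-0.75) were lower. Of the ephrin receptors Epha3 (1.86), Epha6 (1.26) and Epha5 (0.65) were higher, and the ligand Efnb3 was lower, with 3.86, 5.02 and 5.39 in CA3, against 6.10, 6.29 and 6.998 in DG (-1.51 ± 0.17). The netrin receptor Unc5c was 1.57 higher. The Sema3a signal was below the median of all probe sets in both layers, and another probe set of that gene was not called. Among 29 cell adhesion genes 3 were higher and 4 lower (24.1% called, beside 15.8% of all genes). Nectin3 and the contactin Cntn1 (0.48) were higher, and Ncam2 (-0.88), Pcdh8 (-0.88) and Lrrtm2 (-0.59) were lower.

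Growth factor genes were lower in CA3 more often than higher. Of 48 ligands, receptors and binding proteins of the growth factor, Wnt, BMP and neurotrophin families 9 were lower in CA3 and 4 higher, with a median of -0.04. Of the 48, 21 were dim in both layers. Of this list 27.1% was called, beside 15.8% of all genes, and 6 lower and 3 higher calls held whichever mouse was left out. Inhba, with 4.75, 6.32 and 7.36 in CA3, against 8.67, 9.32 and 9.62 in DG, and its extracellular antagonist Fst, with 3.27, 3.43 and 3.71 in CA3, against 4.66, 5.41 and 6.65 in DG (-2.03 ± 0.24), did not overlap between layers. Both were lower in CA3 in all 6 mice. Of the insulin-like growth factor binding proteins Igfbp5 (-1.65) and Igfbp4 (-1.47) were lower, and Igfbp2 (0.85, dim in both layers) was higher. The GDNF receptor Gfra1 (-1.63) and the BDNF receptor Ntrk2 (-0.47) were lower too. The Wnt receptor Fzd7 (1.52) joined Rspo2 and Dkk3 on the CA3 side.

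**Figure D3:**
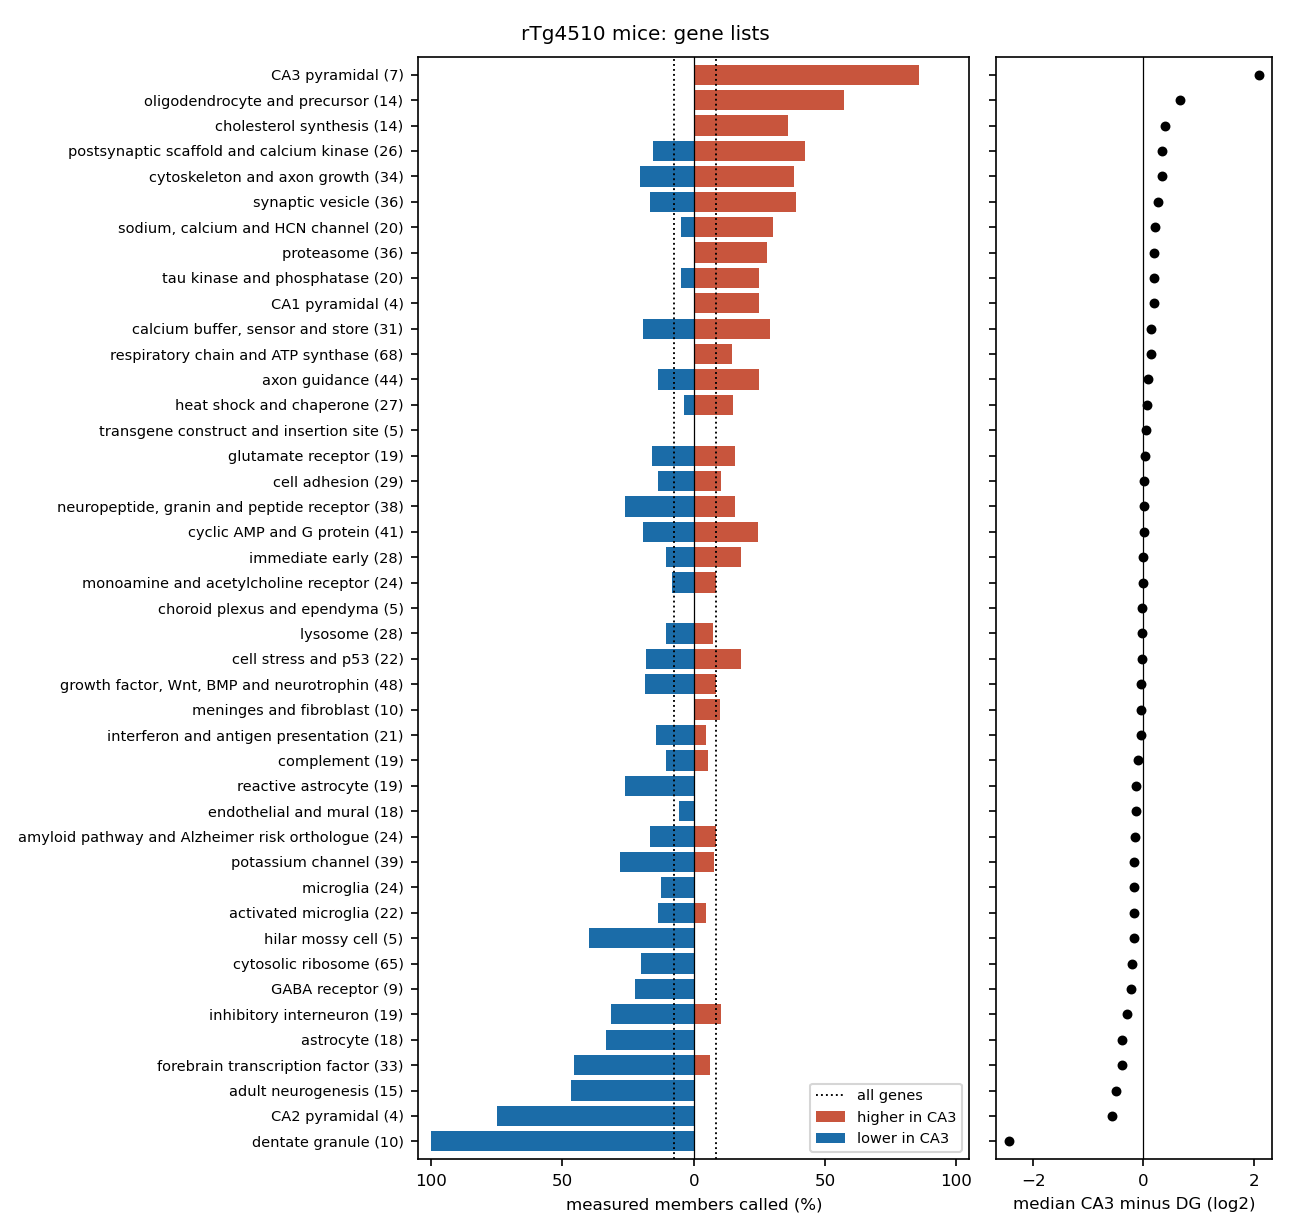
Left, percent of the measured members of each gene list (number in brackets) that were called higher in CA3 (right of 0) or lower in CA3 (left of 0) in rTg4510 mice, with dotted lines at 8.44% and 7.41%, the shares over all genes. Right, median CA3 minus DG (log2) of each list. Lists with at least 4 measured genes are drawn, from the highest median (CA3 pyramidal, 2.10) to the lowest (dentate granule, -2.44).

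Voltage-gated and leak potassium channels were lower more often than higher: 11 of 39 were lower in CA3 and 3 higher, with a median of -0.17. Kcnc4 (Kv3.4), which shapes fast spike repolarization at mossy fibre boutons, had 5.74, 5.98 and 6.42 in CA3, against 8.51, 8.88 and 9.45 in DG. The leak channel Kcnk2 (-2.23), the Shaker-type Kcna3 (-1.35, dim in both layers) and Kcna4 (-1.12), the G protein-gated Kcnj9 (-1.16), Kcnip3 (-0.72) and Kcnk1 (-0.65) were lower and stayed so without any 1 mouse. Kcnq5, an M-current channel, had 6.41, 6.68 and 7.15 in CA3, against 4.15, 5.02 and 5.48 in DG (1.75 ± 0.17), and the calcium-activated channel subunit Kcnmb4 was 0.61 higher. Of 20 sodium, calcium and HCN channel genes 6 were higher and 1 lower. Scn1a (0.80), Scn3b (0.71) and Cacna1a (0.58) were higher, and the T-type calcium channel Cacna1h was lower (-1.55 ± 0.26).

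Of 19 glutamate receptor and auxiliary genes 3 were higher and 3 lower (31.6% called, beside 15.8% of all genes), and the 3 lower calls (Gria1, Grin2b and Grm8, the last dim in both layers) were all lost without mouse4535, mouse4600, mouse4621 or mouse4653, and 1 was left without mouse4666. The AMPA receptor auxiliary subunits Cacng3 (0.91) and Cacng2 (0.77) were higher whichever mouse was left out. Of 9 GABA receptor genes 2 were lower (22.2%), Gabrd (-1.54), the delta subunit of extrasynaptic receptors that carry tonic inhibition in granule cells, and Gabrg3 (-0.99). Gabrd had 5.17, 5.49 and 6.77 in CA3, against 6.58, 7.43 and 7.76 in DG, with 1 CA3 array above the lowest DG array. Of 24 monoamine and acetylcholine receptor genes 2 were higher and 2 lower (16.7% called, near the 15.8% of all genes), and 19 were dim in both layers. The largest difference was that of the muscarinic receptor Chrm3, with 4.76, 5.57 and 6.61 in CA3, against 3.42, 3.60 and 4.88 in DG (1.74 ± 0.28), with slight overlap.

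Calcium signalling genes divided by member. Of 31 calcium buffers, sensors and stores 9 were higher and 6 lower, and the higher calls numbered 5 without mouse4549 or mouse4666. The calmodulin-like Cabp7 (1.59) and Cabp1 (0.89), and the neuronal sensor Vsnl1 (0.59) were higher, while Calb1, Trpc6, Hpcal1 (-1.90) and the ryanodine receptor Ryr1 (-0.80, dim in both layers) were lower. Of 26 postsynaptic scaffold and calcium kinase genes 11 were higher and 4 lower, with a median of 0.34. Prkcd, the calcium/calmodulin kinase Camk1d (1.52), the Ras activator Rasgrp1 (1.32), Prkcb (1.22) and Camkk2 (0.91) were higher. Rasgrf2, another Ras activator, had 3.93, 4.21 and 5.18 in CA3, against 5.84, 6.37 and 7.06 in DG (-2.10 ± 0.24). Within the Homer scaffold family Homer3 was higher (0.92) and Homer2 lower (-1.01), and Homer3 lost its call with the Actb ratio as a covariate (adjusted p = 0.062). In cyclic AMP and G protein signalling 10 of 41 genes were higher and 8 lower (5 lower without mouse4535 or mouse4549), and 2 calcium-dependent phosphodiesterases ran opposite ways: Pde1a had 9.05, 9.20 and 9.38 in CA3, against 6.999, 7.28 and 7.58 in DG (1.91 ± 0.12), and Pde1b had 4.49, 5.35 and 5.63 in CA3, against 6.76, 7.22 and 7.65 in DG (-1.98 ± 0.13).

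Synaptic vesicle and cytoskeletal genes were higher in CA3 more often than lower. Of 36 vesicle and exocytosis genes 14 were higher and 6 lower, with a median of 0.27. The t-SNARE Stx1a had 6.02, 6.71 and 7.14 in CA3, against 4.21, 4.83 and 5.58 in DG (1.79 ± 0.20), and Syt12 (1.58), Vamp1 (1.47), the active zone scaffold Pclo (1.31), Syt4 (1.06) and the synapsins Syn2 (0.93) and Syn1 (0.83) went the same way. Syt10 (-1.88), Syt17 (-1.10) and Cplx2 (-0.70) were lower beside Stxbp6. Of 34 cytoskeletal and axon growth genes 13 were higher and 7 lower, with a median of 0.33. Stmn2, a microtubule regulator of growing axons, had 9.35, 9.66 and 9.76 in CA3, against 7.18, 7.59 and 7.71 in DG (2.08 ± 0.11), and Gap43 (1.14), Nefh (1.08) and Tubb3 (0.89) were higher too. The actin-regulating MARCKS family was lower, Marcksl1 with 5.37, 6.06 and 6.51 in CA3, against 8.22, 8.32 and 8.54 in DG (-2.39 ± 0.16), and Marcks at -1.34.

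Neuropeptide genes and peptide receptors were lower in 10 and higher in 6 of 38, with a median of 0.00. Of the 38, 17 were dim in both layers. Tac1, the substance P precursor, had 4.32, 4.78 and 5.70 in CA3, against 6.79, 7.53 and 8.15 in DG (-2.64 ± 0.19). Npy had 5.77, 6.24 and 7.27 in CA3, against 7.41, 7.89 and 8.70 in DG (-1.64 ± 0.11, adjusted p = 8.88e-05), and its receptors Npy1r (-1.85, dim in both layers) and Npy5r (-1.02) were lower with it. Nmb (-2.15), also a marker of hilar mossy cells, and the somatostatin receptor Sstr2 (-2.28) were lower, with no overlap between layers. Cck was higher in CA3 (0.73), as were its receptor Cckbr (0.80), Chgb (0.89) and Scg5 (0.84).

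Interneuron and glial markers moved beside these differences, and their part in the neuronal results was not tested. Of 19 inhibitory interneuron markers 6 were lower in CA3 and 2 higher, with 1 higher without mouse4535, mouse4549 or mouse4666. The list averaged between 5.85 and 6.17 in CA3 arrays and between 6.12 and 6.87 in DG arrays, and it was lower in CA3 in all 6 mice. Gad1, which makes GABA, had 9.05, 9.15 and 9.26 in CA3, against 10.04, 10.23 and 10.57 in DG (-1.14 ± 0.10), and Gad2 differed by -0.82 ± 0.16. Tac1, Npy and Reln (-1.27) belong to the same list. Sst (0.58), Cnr1 (0.00), Lhx6 (-0.07) and Vip (-0.55) were not called, and Nos1 (1.84) was higher, although another of its probe sets was not called.

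Astrocyte markers were lower in CA3 in 6 of 18 and higher in none, with a median of -0.39, and the list averaged between 7.82 and 8.16 in CA3 arrays and between 8.05 and 8.61 in DG arrays. Gfap, the intermediate filament of astrocytes, had 9.48, 9.75 and 10.12 in CA3, against 9.93, 10.46 and 10.69 in DG (-0.61 ± 0.09, adjusted p = 0.00403), and Ptprz1 (-1.35), F3 (-0.59) and Gja1 (-0.46) were lower beside Slc4a4. The water channel Aqp4 (-0.20) was not called. Of 19 reactive astrocyte genes 5 were lower, and 3 without mouse4535, mouse4549, mouse4600 or mouse4653. Vim had 7.72, 8.14 and 8.24 in CA3, against 8.59, 9.44 and 9.81 in DG (-1.37 ± 0.12), and the interferon-induced Iigp1, dim in both layers, differed by -2.09.

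Oligodendrocyte genes went the other way. Of 14 measured, 8 were higher in CA3 and none lower, with a median of 0.66, and the list averaged between 6.66 and 7.22 in CA3 arrays and between 5.95 and 6.70 in DG arrays. Mog, a protein of the outer myelin surface, had 4.94, 5.18 and 5.98 in CA3, against 3.60, 4.20 and 4.65 in DG (1.14 ± 0.18, adjusted p = 0.0044). Cnp (0.97), Mobp (0.76), Mbp (0.71, both of them not called without pairing by mouse), Cldn11 (0.67) and Mal (0.66) were also higher, whereas the lineage factors Olig1 (0.06), Olig2 (-0.07) and Sox10 (0.00) were not called.

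Microglial genes differed little between the layers. The list averaged between 5.48 and 5.90 in CA3 arrays and between 5.57 and 6.12 in DG arrays, and it was lower in CA3 in all 6 mice. Of 24 microglial markers 3 were lower (12.5%, beside 7.41% of all genes), and 1 of these without mouse4535, mouse4600 or mouse4653. Csf1r (-0.15), Cx3cr1 (-0.45), P2ry12 (0.15), Tyrobp (-0.15) and Trem2 (-0.09, dim in both layers) were not called. The C1q subunits C1qa (-0.30), C1qb (-0.14) and C1qc (0.15) were not called either. C4b, a complement component, had 5.23, 6.54 and 7.33 in CA3, against 5.70, 7.74 and 8.13 in DG (-1.02 ± 0.14, adjusted p = 0.00216). Its arrays overlapped widely between layers although it was lower in CA3 in each of the 6 mice, and without pairing by mouse it was not called (adjusted p = 0.153). In the complement list the regulator Cd55 was 1.19 higher. Lpl, lipoprotein lipase, listed among activated microglia but also made by hippocampal neurons, had 10.80, 10.97 and 11.13 in CA3, against 8.42, 8.77 and 8.93 in DG (2.25 ± 0.08). Of 5 choroid plexus markers none was called and of 18 endothelial markers 1 was, Slc2a1, which was lost without mouse4600, mouse4653 or mouse4666, with up to 3 called when 1 other mouse was left out, and the only called meningeal marker was Igfbp2 (0.85, dim in both layers).

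Genes tied to tau and amyloid were measured in the same layers. Mapt, the mouse tau gene, had 6.38, 6.68 and 7.05 in CA3, against 5.89, 6.38 and 7.43 in DG, and its difference of 0.24 ± 0.20 was not called (adjusted p = 0.505). Camk2a, whose promoter drives the transactivator, differed by -0.03 ± 0.10, and Fgf14, at an insertion site of the tau transgene, by 0.12 ± 0.10, neither called. Of 20 tau kinase and phosphatase genes 5 were higher in CA3 and 1 lower, Mark1, a call lost without mouse4535, mouse4621, mouse4653 or mouse4666. Mapk8 had 7.45, 7.83 and 8.27 in CA3, against 6.61, 6.79 and 7.26 in DG (1.04 ± 0.12), and Mapk10 (0.81) was higher whichever mouse was left out, while Gsk3b (0.21) was not called. Among 24 amyloid and Alzheimer risk genes Mef2c, Sorl1 (-0.65) and Clu (-0.38) were lower without any 1 mouse.

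Housekeeping lists shifted by small amounts. Proteasome subunits were higher in CA3 in 10 of 36 (27.8%, beside 8.44% of all genes), with a median of 0.20. Without mouse4535, mouse4600, mouse4653 or mouse4666 they were higher in 3 or 4 of 36, and 3 of 36 is near that background. Respiratory chain and ATP synthase genes were higher in 10 of 68 (14.7%), beside 8.44% of all genes, and in 4 to 6 of 68 without the same mice, a share at or near that background, with a median of 0.13. Cytosolic ribosomal protein genes were lower in 13 of 65 (20%, beside 7.41% of all genes), with a median of -0.21. Without the same mice they were lower in 5 to 8 of 65, and 5 of 65 is near that background. In all 6 mice the mean level was higher in CA3 for the first 2 lists and lower for the ribosomal list. Cholesterol synthesis genes were higher in 5 of 14 with a median of 0.39, led by Sqle (1.20), Fdft1 (0.81) and Dhcr7 (0.81).

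Immediate early genes, which neurons induce on activity, were higher in 5 and lower in 3 of 28 (28.6% called, beside 15.8% of all genes). Ptgs2 had 7.74, 8.12 and 9.12 in CA3, against 4.88, 5.79 and 6.67 in DG (2.49 ± 0.13, adjusted p = 4.83e-05), and Dusp6 (1.495) and Nr4a3 (1.42) were higher whichever mouse was left out. Fos (-0.34) and Bdnf (-0.03) were not called. Jun, which codes for a subunit of the AP-1 transcription factor, had 8.89, 9.21 and 9.78 in CA3, against 9.87, 10.01 and 10.12 in DG (-0.75 ± 0.10, adjusted p = 0.00222). Without mouse4600, mouse4653 or mouse4666 Jun was the only lower call of this list. Of the cell stress and p53 list Gadd45a (1.36, dim in both layers) was higher, and Sesn1 (-1.08) and Bcl2 (-0.67) were lower.

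The subfield difference itself was then compared between genotypes, on the CA3 minus DG value of each mouse. Against tTA mice a single probe set of 22626 (0.00442%) was called, that of Jun, while 1919 (8.48%) had an unadjusted p below 0.05. Against DN mice 273 probe sets (1.21%) were called, 144 higher (0.636%) and 129 lower (0.57%). At the level of single genes 84 were higher (0.711%) and 77 lower (0.652%). Without DN mouse4797 there were 141, and without DN mouse4883 there were 160. In their own paired fits 2017 probe sets (8.91%) were called in tTA mice and 6313 (27.9%) in DN mice. The tTA count depended on how the spread was estimated: it was 4075 with 1 spread shared by the 3 genotypes, and it lay between 775 (without tTA mouse4626) and 1593 without 1 mouse, with 1162, 1341 and 1270 without tTA mouse4580, mouse4592 and mouse4637. These counts therefore do not rank the genotypes. The DN mice ran from mouse4797 to mouse4886 and the mice of both transgenic genotypes from mouse4535 to mouse4666, so any cohort that follows these numbers cannot be told apart from the DN genotype.

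Jun was the gene whose subfield difference set rTg4510 mice apart from tTA mice. Its level in CA3 was 8.89, 9.21 and 9.78 (lowest, median and highest) in rTg4510 mice, 7.74, 7.79 and 8.03 in tTA mice and 7.32, 7.67 and 7.73 in DN mice. In DG it was 9.87, 10.01 and 10.12 in rTg4510 mice, 9.70, 9.84 and 9.92 in tTA mice and 10.44, 10.55 and 10.75 in DN mice. The CA3 arrays of rTg4510 mice lay above all CA3 arrays of the other genotypes, and CA3 minus DG did not overlap between any of the 3 genotypes. The difference of differences was 1.20 against tTA mice (adjusted p = 0.00161) and 2.23 ± 0.13 against DN mice (adjusted p = 3.36e-08). In a fit of all 49 arrays without a mouse term, which took in the CA1 arrays, the first of these was not called (adjusted p = 0.17). A dimmer Jun probe set differed by -1.09 in rTg4510 mice, -2.17 in tTA mice and -3.06 in DN mice, and its genotype test was called against DN mice (1.96, adjusted p = 0.00198) but not against tTA mice (1.07, adjusted p = 0.321). The 250 bases before the annotated start are shown because Jun can act on its own promoter through AP-1 elements (RefSeq, GRCm38.p6, minus strand, chr4:95052223-95052472). Capitals mark the variant AP-1 element TGACATCA, 45 bases before the start and found in 2.93% of promoter windows, and an E-box.
Jun: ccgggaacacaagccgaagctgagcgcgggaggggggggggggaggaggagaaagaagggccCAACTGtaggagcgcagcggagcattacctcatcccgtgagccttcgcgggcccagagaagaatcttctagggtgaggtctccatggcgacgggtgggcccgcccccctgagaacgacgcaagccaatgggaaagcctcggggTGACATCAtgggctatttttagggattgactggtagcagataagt
The canonical AP-1 element TGACTCA, found in 4.46% of windows, was not among these letters.

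**Figure D4:**
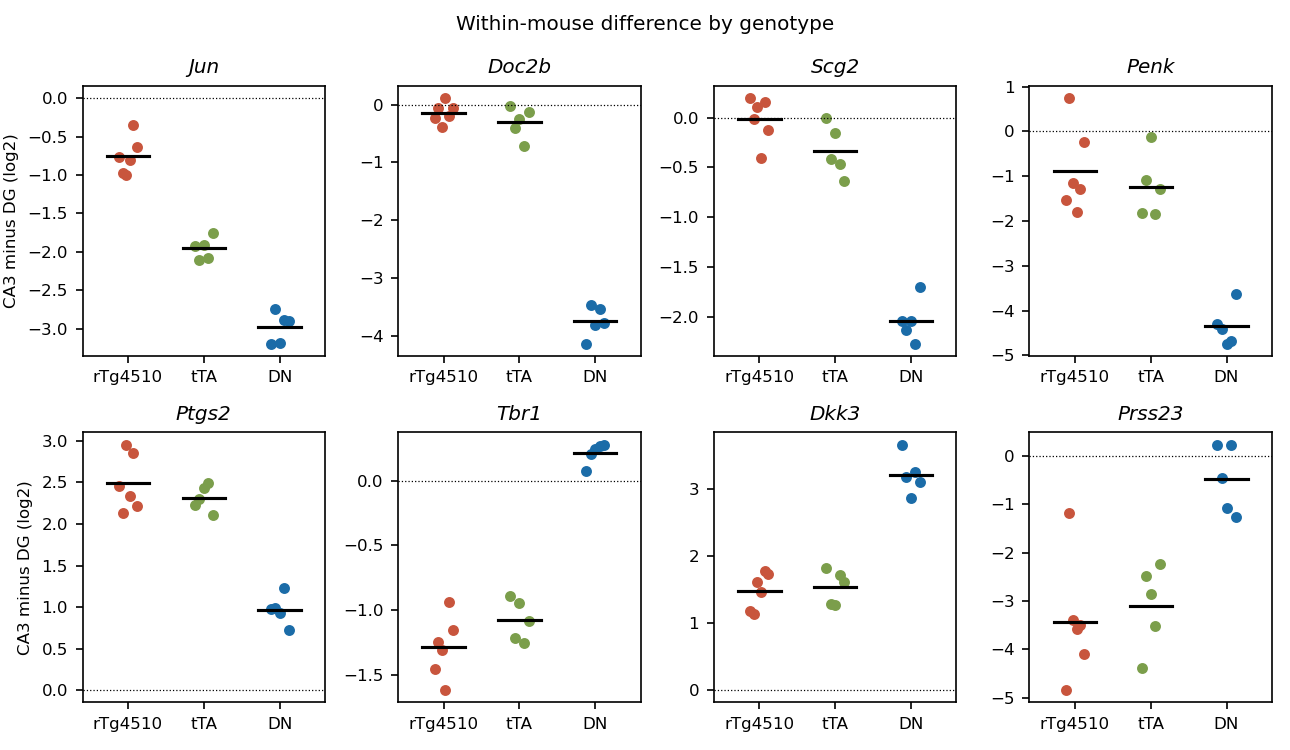
CA3 minus DG (log2, y axis) of each mouse in rTg4510 (6 mice), tTA (5) and DN (5) mice for 8 genes, with a bar for the mean and a dotted line at 0. For Jun the 3 genotypes do not overlap, and for the other 7 genes rTg4510 mice lie near tTA mice and away from DN mice, and 1 rTg4510 value of Prss23 lies within the DN range.

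Against DN mice 161 of 11807 genes (1.36%) were called with 1 probe set per gene. In 141 of them the subfield difference was smaller in size in rTg4510 mice than in DN mice, 76 being genes lower in CA3 in DN mice and 65 genes higher in CA3 there. The median absolute difference of the 161 genes was 0.56 in rTg4510 mice, 0.65 in tTA mice and 1.39 in DN mice, beside 0.15, 0.16 and 0.16 over all genes. These medians describe genes chosen by this same contrast and support nothing further.

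A first group consisted of genes far lower in CA3 than in DG of DN mice and with a smaller difference, or none that was called, in rTg4510 mice. Doc2b, a calcium sensor of vesicle fusion, had 3.03, 3.10 and 3.37 in CA3, against 2.96, 3.31 and 3.44 in DG of rTg4510 mice, and averaged 3.31 in CA3 and 3.62 in DG of tTA mice, and 3.09 in CA3 and 6.82 in DG of DN mice. Its difference was -0.14 in rTg4510 mice and -3.74 in DN mice (3.60 ± 0.15, adjusted p = 4.9e-10). Penk, the enkephalin precursor, averaged 5.46 in DG of rTg4510 mice and 8.51 in DG of DN mice, with differences of -0.88 and -4.36 (3.48 ± 0.41). The matrix proteins Ogn (-0.29 in rTg4510 mice, -3.68 in DN mice) and Lum (-0.08 and -1.91), the retinol carrier Rbp4 (0.44 and -2.14), the dynorphin precursor Pdyn (-0.70 and -2.69) and the POU factor Pou3f1 (0.24 and -2.44) went the same way, and all were dim in both layers of rTg4510 mice. Scg2, secretogranin II, had 7.54, 7.71 and 8.24 in CA3, against 7.42, 7.89 and 8.12 in DG of rTg4510 mice, but averaged 7.31 in CA3 and 9.35 in DG of DN mice (2.03 ± 0.14, adjusted p = 4.52e-07). Arpp21, a cyclic AMP-regulated phosphoprotein, differed by 0.15 in rTg4510 mice and -2.26 in DN mice. In tTA mice, which are set here against the same DN mice, the differences were -0.31 for Doc2b, -1.23 for Penk, -0.34 for Scg2 and -0.35 for Arpp21. The Scg2 promoter is shown for its cyclic AMP response element TGACGTCA (capitals, with 1 E-box), 68 bases before the annotated start and present in 1.55% of promoter windows (RefSeq, GRCm38.p6, minus strand, chr1:79440027-79440276).
Scg2: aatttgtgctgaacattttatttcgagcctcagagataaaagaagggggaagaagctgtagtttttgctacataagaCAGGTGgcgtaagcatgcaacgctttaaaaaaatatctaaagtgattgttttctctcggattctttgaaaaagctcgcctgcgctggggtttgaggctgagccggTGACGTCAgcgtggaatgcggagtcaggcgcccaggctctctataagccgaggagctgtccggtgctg

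Granule cell genes that stayed lower in CA3 in rTg4510 mice were also among those with a smaller difference than in DN mice. Of the 10 granule markers 3 were called in this test: Trpc6 (-2.27 in rTg4510 mice, -4.47 in DN mice), Stxbp6 (-2.10 and -3.96) and C1ql3 (-2.61 and -4.40). For all 3 the DG level was lower in rTg4510 mice, with Trpc6 at a mean of 6.33 in DG of rTg4510 mice and 8.31 in DG of DN mice. Bcl6 (-2.75 and -4.10), Kcnc4 (-2.90 and -4.22), Bcl11b (-1.34 and -2.31) and Sox11 (-1.05 and -2.20) also had smaller differences. In tTA mice the differences were -1.93 for Trpc6, -2.05 for Stxbp6, -2.28 for C1ql3, -2.78 for Bcl6, -3.29 for Kcnc4, -0.90 for Bcl11b and -0.96 for Sox11. Id2 (-0.39 and -1.46) and Itpka (0.13 and -1.07) were called in the genotype test but not between the layers of rTg4510 mice. For Id2 the CA3 level differed, at 7.46 in rTg4510 mice and 6.32 in DN mice, with 7.85 and 7.78 in DG. Dsp (-4.19 and -5.77), Calb1 (-3.80 and -5.83) and Prox1 (-3.44 and -5.03) had smaller values too, but the genotype test did not call them, apart from Calb1 without DN mouse4886 (adjusted p = 0.0301).

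**Figure D5:**
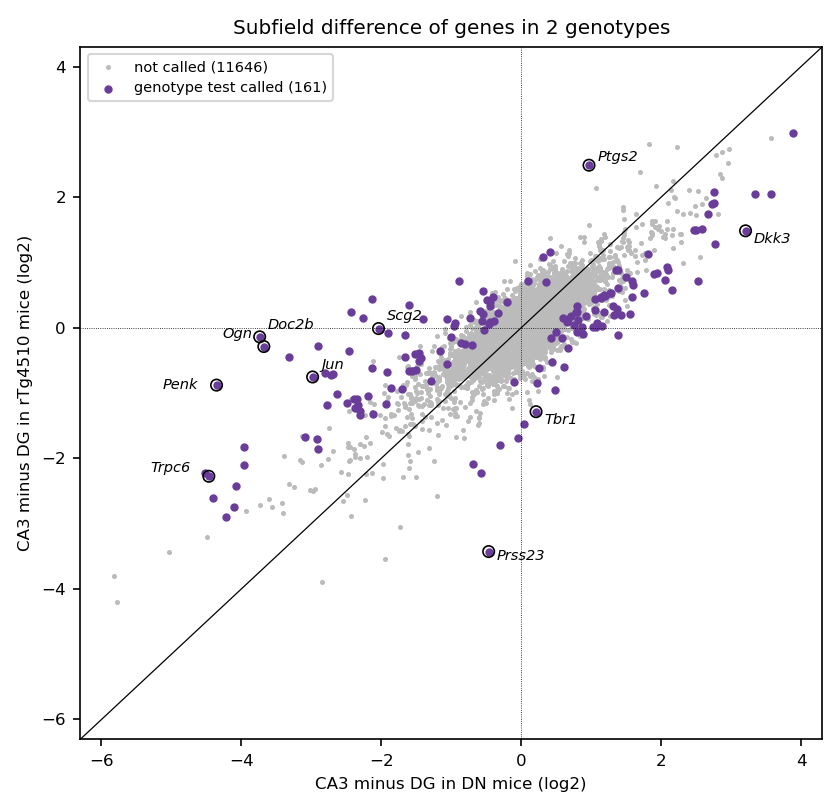
CA3 minus DG (log2) in rTg4510 mice (y axis) against DN mice (x axis) for 11807 genes, each point 1 gene. The 161 genes called in the genotype test are coloured, most of them nearer to 0 on the y axis than on the x axis, and Ptgs2, Tbr1 and Prss23 are among the 20 that are not.

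On the CA3 side the difference was smaller in rTg4510 mice for the Wnt-related Dkk3 (1.48 in rTg4510 mice, 3.21 in DN mice, adjusted p = 1.78e-05) and for Cck (0.73 and 2.05, adjusted p = 2.84e-05). In both the DG level differed most: Cck averaged 10.14 in CA3 and 9.41 in DG of rTg4510 mice, and 10.06 in CA3 and 8.01 in DG of DN mice. Robo1 (0.93 and 2.09), Nrip3 (0.83 and 1.89), Anxa7 (0.48 and 1.59), Eif1b (0.04 and 0.76), the glutamate receptor auxiliary protein Neto1 (0.01 and 1.07) and Sh3rf1 (-0.11 and 1.39) also had smaller values in rTg4510 mice. The differences in tTA mice were 1.54 for Dkk3, 0.75 for Cck, 1.13 for Robo1, 0.75 for Nrip3, 0.45 for Anxa7, 0.13 for Eif1b, 0.24 for Neto1 and 0.31 for Sh3rf1. Neurod6 differed by 2.98 in rTg4510 mice, 2.46 in tTA mice and 3.89 in DN mice, and the test against DN mice called it (adjusted p = 0.0393). Nrip3 lost its call in fits of all 49 arrays, CA1 among them (adjusted p = 0.612 without a mouse term, 0.445 with mouse as a random block). Neto1 lost its call in the first of these fits (adjusted p = 0.0535).

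In 20 genes the subfield difference was larger in rTg4510 mice than in DN mice. Prss23 differed by -3.43 in rTg4510 mice and by -0.47 in DN mice, and DG averaged 8.57 in rTg4510 mice and 5.38 in DN mice, with the difference of 1 rTg4510 mouse inside the DN range. Kcnk2 (-2.23 and -0.58), Igfbp4 (-1.47 and 0.04) and Tbr1 (-1.29 and 0.21, adjusted p = 1.67e-06) were also higher in DG of rTg4510 mice than of DN mice. Tbr1, a T-box factor of glutamatergic neurons, had 8.90, 9.08 and 9.45 in CA3, against 10.20, 10.38 and 10.65 in DG of rTg4510 mice, with no overlap. In DN mice it had 8.63, 9.24 and 9.48 in CA3, against 8.36, 9.04 and 9.24 in DG. Ptgs2 differed by 2.49 in rTg4510 mice and 0.97 in DN mice (adjusted p = 2.84e-05), with a DG mean of 5.76 in rTg4510 mice and 7.52 in DN mice. A dimmer probe set of Ptgs2 missed the threshold in this test (adjusted p = 0.0545). In tTA mice the differences were -3.10 for Prss23, -1.62 for Kcnk2, -1.08 for Tbr1 and 2.31 for Ptgs2, and -0.78 for Igfbp4, between the values of rTg4510 and DN mice. The test of rTg4510 against tTA mice called none of the 5.

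In the genotype test against DN mice, which called 1.36% of all genes, 1 of 18 astrocyte, 1 of 24 microglial, 1 of 19 reactive astrocyte and none of 14 oligodendrocyte genes were called. C4b differed by -1.02 in rTg4510 mice, -2.29 in tTA mice and -0.13 in DN mice, and Gfap by -0.61, -1.51 and -0.36, and neither genotype test called either gene. The astrocyte gene was Ntsr2 (-0.07 in rTg4510 mice, 0.80 in DN mice). The microglial gene was P2ry12 (0.15 and -0.73, adjusted p = 0.0292), whose call was lost in 7 of the 11 fits without 1 mouse, and the reactive astrocyte gene was Iigp1 (-2.09 and -0.68, adjusted p = 0.0368), lost in 9 of them.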

How the data were processed

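Cell layers were laser captured, amplified and hybridised to Affymetrix HT-MG-430A arrays. The authors normalised the arrays with RMA (version not given in the sources used here) and deposited log2 values, between 1.94 and 13.8, for 22716 probe sets. Depth has no meaning for arrays, and their number limits the precision. After 90 control probe sets were left out, 22626 were tested with limma 3.58.1 in R 4.3.3 (lmFit and eBayes, Benjamini-Hochberg adjustment over all probe sets, threshold 0.05), with mouse as a fixed block. CA3 and DG arrays of 1 number came from 1 animal, and their deviations from the subfield means correlated at a median of 0.18 (0.094 to 0.27, n = 6 pairs), against -0.05 between mice. The genotype tests fitted the within-mouse differences of 16 mice. In the main fit and the genotype tests p-values rest on the spread of CA3 minus DG between the mice sampled. With 1 array for each layer of a mouse, this spread also holds technical noise. No 2 arrays held identical values.

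The platform annotation gave 18003 probe sets 1 gene symbol, 287 several and 4336 none listed. Symbols were checked through 17977 Entrez matches to the RefSeq tables, and none changed. Each of 11807 genes was represented by its brightest probe set over the 12 arrays, and a signal below the median of all probe sets (5.03) in both subfields is called dim. Lists were described by counts and medians, and each count is to be read beside the 8.44% of all genes called higher and 7.41% called lower. Members and lists were chosen with earlier results of these data known. The named genes were the 12 highest and 12 lowest that were called and moved alike in all 6 mice, up to 6 called members of each list and direction by size, and defining markers. Further members were named after their values were seen. Both fits were tested on simulated data before use. Alternatives covered the block, normalisation, filtering, weights, the Actb ratio, the least significant difference test of the study's methods, and each mouse left out.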

Additional observations from a re-analysis of the deposited data

Results flagged for a closer look

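In 13 of 204 named genes the CA3 minus DG value of 1 mouse lay far from those of the other 5 by Dixon's criterion, which chance alone meets in about 1 group in 20. Mouse4535 stood apart for Syt4 at 1.63 (the others 0.84 to 1.004). Mouse4549 stood apart for C1qc at -0.72 (the others 0.15 to 0.54), Lpl at 1.96 (the others 2.25 to 2.38), Lrrtm2 at -0.13 (the others -0.83 to -0.57), Olig2 at -0.69 (the others -0.05 to 0.17) and Sh3rf1 at 0.55 (the others -0.30 to -0.08). Mouse4600 stood apart for Nefh at 0.80 (the others 1.10 to 1.20), Nfia at -1.71 (the others -1.16 to -1.02) and Nfib at -1.53 (the others -0.86 to -0.53). Mouse4621 stood apart for Efnb3 at -2.45 (the others -1.60 to -1.15) and Nectin3 at 3.45 (the others 2.33 to 2.73). Mouse4666 stood apart for Chgb at 1.26 (the others 0.74 to 0.89) and Kcnip3 at -0.014 (the others -0.91 to -0.72). C1qc, Olig2 and Sh3rf1 were not called between subfields, and the calls of the other 10 genes held without the outlying mouse.

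The subfield difference differed between genotypes, by limma on the within-mouse differences, for Jun between rTg4510 and tTA mice (1.20). Between rTg4510 and DN mice CA3 minus DG was higher in rTg4510 mice for Doc2b (3.60), Penk (3.48), Ogn (3.39), Pou3f1 (2.68), Rbp4 (2.58), Arpp21 (2.41), Jun (2.23), Trpc6 (2.19), Scg2 (2.03), Pdyn (1.99), Stxbp6 (1.87), Lum (1.83), C1ql3 (1.79), Ptgs2 (1.52), Bcl6 (1.35), Kcnc4 (1.33), Itpka (1.20), Sox11 (1.15), Id2 (1.07), Bcl11b (0.97) and P2ry12 (0.88). It was lower in rTg4510 mice for Prss23 (-2.96), Dkk3 (-1.72), Kcnk2 (-1.65), Igfbp4 (-1.51), Tbr1 (-1.50), Sh3rf1 (-1.49), Iigp1 (-1.41), Cck (-1.32), Robo1 (-1.16), Anxa7 (-1.11), Nrip3 (-1.07), Neto1 (-1.06), Ntsr2 (-0.86) and Eif1b (-0.72). Each of these calls held without any 1 mouse of the genotypes compared, apart from those of P2ry12 and Iigp1. No mouse of the remaining genotype was left out. Named genes outside these lists were called against DN mice too, among them Neurod6 (-0.91) and Dusp6 (-1.01), both at adjusted p = 0.0393. Dusp6 lost this call in 10 of the 11 fits without 1 mouse.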

How the results depend on the processing

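Among 204 named genes no called subfield difference reversed direction under any alternative limma fit, and neither did the genotype calls tested in the same way. The least significant difference tests were counted over probe sets only, and single genes were not followed through them. For all called probe sets the direction was checked only with 1 mouse left out. Without the mouse block 2878 probe sets were called in rTg4510 mice, and 258 of the 984 list genes, against 312 with pairing. C4b, Mobp, Mbp, Gria1, Grin2b, Grm8, Slc2a1, Mark1 and Anxa7 lost their calls there. The genotype tests without a mouse term used all 49 arrays, CA1 among them. They called 0 probe sets against tTA mice (Jun, adjusted p = 0.17) and 183 against DN mice. With mouse as a random block over 49 arrays there were 4316 probe sets in rTg4510 mice, 4043 in tTA mice and 2 in the test against tTA mice, and with 1 spread shared by the genotypes 4075 in tTA mice. The Actb ratio as a covariate left 2120 probe sets in rTg4510 mice, and Homer3, Gria1, Grin2b, Grm8, Pdyn, Mark1 and Slc2a1 were not called. A minimum of 2-fold left 649 probe sets and 93 list genes. Array weights gave 508 probe sets against DN mice. The least significant difference test of the methods called 2350 probe sets on the log2 scale and 2285 after the values were taken out of logs.

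Leaving out 1 mouse gave 2328 to 3274 probe sets in rTg4510 mice, 229 to 300 list genes, 775 to 1593 in tTA mice, 5184 to 5607 in DN mice, 1 to 2 against tTA mice and 141 to 236 against DN mice. With dim probe sets left out the list medians were 0.20 for axon guidance, 0.42 for synaptic vesicle, 0.25 for neuropeptide and -0.35 for growth factor genes, and the cause was not tested. Signals near background limit Coch, Sema3a, Iigp1, Npy1r, Doc2b, Ogn, Lum, Rbp4, Pdyn, Pou3f1, Kcna3, Grm8, Ryr1, Pdzrn3, Gadd45a, Igfbp2, Olig2, Sox10 and Trem2, which were dim in both layers of rTg4510 mice.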
